A study of Mus musculus with 9 samples.

Results

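The genes described are 33 genes of protein folding in the endoplasmic reticulum (ER) and of the unfolded protein response, chosen by name from the 54532 genes of a table of raw RNA-seq counts. All 33 names had a row in the table, and 32 were abundant enough to be tested. The cells were HC11, a mouse mammary epithelial line labelled as strain C57BL/6, grown in serum-containing medium. Of its 9 libraries, 3 came from the group EpPT2 and 3 from the group EpPT1, both exposed to 660 nm light, and 3 from untreated cells (Ctrl). The sample labels give 20 J/cm2 for EpPT2 and 10 J/cm2 for EpPT1, and the treatment protocol gives other, lower fluences, so the groups carry no dose here. The sources name both a laser and an LED and do not give the time from exposure to lysis. HC11 is 1 line, and no label names separate cultures for the 3 libraries of a group. The p-values below therefore reflect differences among these 9 libraries alone, and that scatter may be technical.

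Proteins that enter the secretory pathway cross the ER membrane through the Sec61 channel and fold in the ER lumen with the help of chaperones and disulfide isomerases. Chains that fail to fold are sent back to the cytosol and destroyed, a route known as ER-associated degradation (ERAD). When unfolded chains build up, the sensors IRE1 (the gene Ern1), ATF6 and PERK (the gene Eif2ak3) are activated. IRE1 splices the Xbp1 message, ATF6 is cut to release a transcription factor, and PERK slows translation and raises ATF4, and together they raise chaperone, isomerase and ERAD genes. Secretory cells, such as mammary epithelial cells that make milk proteins, depend on this machinery.

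Total counts ran from 14549787 to 17228929 per library, and the biological coefficient of variation, the spread between libraries of a group beyond counting error, was 39.3%. Of the 5 luminal epithelial markers all had counts, with summed levels of 1942 to 2064 counts-per-million (CPM) units in EpPT2, 1923 to 2183 CPM in EpPT1 and 1631 to 2576 CPM in Ctrl, carried by keratins, while the adhesion gene Cdh1 stayed at or below 0.777 CPM. The milk protein genes Csn2, Wap and Lalba were at 0 counts in all 9 libraries. Of the 5 plasma cell markers, a cell type rich in ER proteins, all had counts, with summed levels of 174.4 to 204 CPM in EpPT2, 101.3 to 203 CPM in EpPT1 and 119.1 to 187.4 CPM in Ctrl. Nearly all of this was Sdc1, at 78.8 to 186.9 CPM, and Prdm1, at 13.5 to 77 CPM with its highest level in Ctrl 3, genes that epithelial cells also express. The defining genes Mzb1, Jchain and Igkc stayed at or below 0.372 CPM. Libraries of the same group differed in their mitochondrial share. Mitochondrial genes took 3.38%, 6.06% and 6.94% of counts in EpPT2 libraries 1 to 3, 2.74% to 6.93% in EpPT1 and 2.86% to 7.48% in Ctrl. The 4 libraries above 5% were EpPT2 2, EpPT2 3, EpPT1 3 and Ctrl 3. The slope of log2 level on gene GC content also differed, from 0.186 to 0.291 per 10 points of GC in EpPT2, from -0.355 to 0.368 in EpPT1 and from -0.495 to -0.223 in Ctrl. It was positive in all 3 EpPT2 libraries and negative in all 3 Ctrl libraries, so this slope and the exposure cannot be told apart in that comparison.

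Most of the ER genes varied along that mitochondrial division, and several stood out in 1 library, Ctrl 3. The 33 genes together took 0.728%, 1.24% and 1.26% of all counts in EpPT2 libraries 1 to 3, 0.851%, 0.74% and 1.23% in EpPT1, and 0.823%, 0.849% and 1.55% in Ctrl. In every group the libraries with over 5% mitochondrial counts were the higher ones. Of the 32 tested genes, 20 were higher in all 4 libraries with over 5% mitochondrial counts than in any of the other 5 libraries, against 16.5% of all tested genes, and 0 were lower in all 4, against 18% of all tested genes. Such a gene is said below to follow the mitochondrial division. In bulk RNA, fewer cells of a type and less RNA per cell cannot be told apart. Among markers of other cell types, the macrophage gene Cd68, which is also a general lysosomal gene, was at 87.4 to 102.5 CPM in those 4 libraries and at 8.5 to 45.1 CPM in the other 5. Of the 5 leukocyte markers 4 had counts, with summed levels of 16 to 92 CPM in EpPT2, 14.6 to 102.1 CPM in EpPT1 and 12.2 to 106.1 CPM in Ctrl, but Adgre1 was at 0 and Ptprc at or below 0.762 CPM. The 3 basal markers summed to 8.59 to 23.1 CPM in EpPT2, 7.27 to 23.6 CPM in EpPT1 and 4.65 to 19.4 CPM in Ctrl, highest in each group in a library with over 5% mitochondrial counts. Of the 5 fibroblast markers, Dcn held nearly all of the summed 761 to 2123 CPM in EpPT2, 743 to 2097 CPM in EpPT1 and 1302 to 3296 CPM in Ctrl. The part of these differences in the ER gene levels was not tested.

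**Figure D1:**
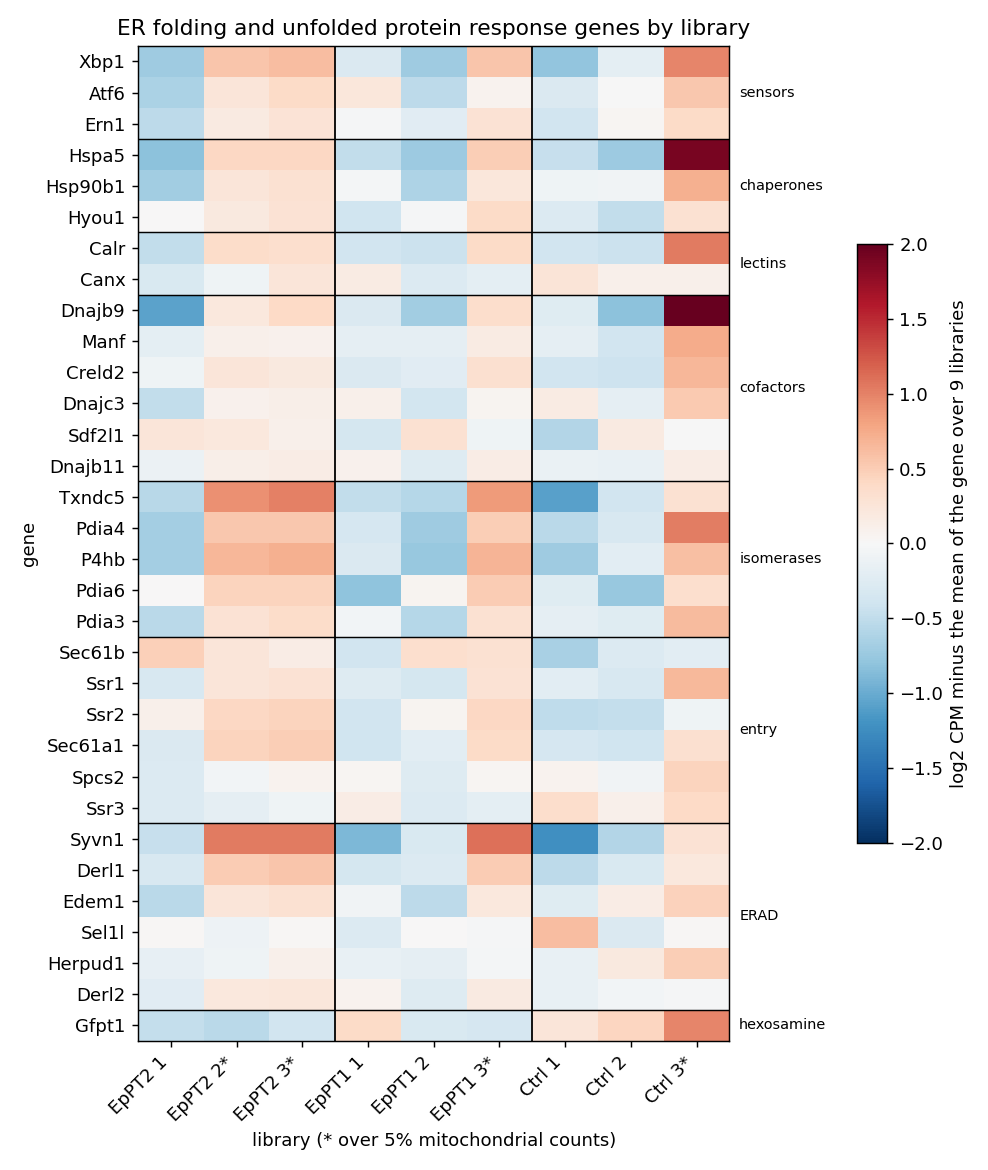
Heat map of the 32 tested genes (rows, grouped by role) in the 9 libraries (columns, an asterisk marks over 5% mitochondrial counts), coloured by log2 CPM minus the mean of that gene over the 9 libraries. Most rows are higher in the 4 marked libraries, Hspa5 and Dnajb9 are darkest in Ctrl 3, and Gfpt1 is higher in the Ctrl libraries than in the EpPT2 libraries.

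By the profile of the 32 genes, 1 of the 9 libraries had its closest match in its own group. The closest libraries were EpPT2 1 and EpPT1 2, with a median absolute difference of 0.0483 on the log2 scale, followed by EpPT2 2 and EpPT1 3 with 0.0582 and EpPT2 3 and EpPT2 2 with 0.0596. Library Ctrl 3 was the most distant from any other, with 0.361 to its nearest, EpPT2 3. Over all tested genes the same pairs were at 0.124, 0.167 and 0.132, so that EpPT2 2 was closest to EpPT2 3 there. Ctrl 3 was again the most distant, with 0.421 to EpPT2 3. This closeness of libraries was thus not particular to the 32 genes. The median coefficient of variation over the 9 libraries was 26.7% for the 32 genes and 32.5% for all tested genes.

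Part of the ATF6 and XBP1 response acts through a short DNA motif, the ER stress element (ERSE), bound by ATF6 or XBP1 next to the CCAAT-binding factor NF-Y. Promoter windows of 300 bases (250 before and 50 after a gene's start) from RefSeq on build GRCm38.p6 were found for 27 of the 33 genes. The windows were searched on both strands for ERSE, which is CCAAT, then 9 bases of any kind (N), then CCACG, and for the related ERSE-II, which is ATTGG, 1 base of any kind, then CCACG. The motifs share the letters CCACG, and no gene of the set held both. An ERSE was found in 9 of the 27 genes (33.3%), Calr, Canx, Creld2, Derl3, Dnajc3, Hsp90b1, Hspa5, Pdia6 and Syvn1. It was found in 28 genes outside the set, and in 39 of all 32851 windows (0.119%). With the set included, 27025 genes had a window. The set was chosen by name as genes of this response, so these shares are not a test. An ERSE-II was found in Dnajb11 and Herpud1, in 10 genes outside the set, and in 12 of all windows (0.0365%). A match describes the letters and was not tested for binding. The matches of 9 genes with results below are shown here because these elements are a known link of ATF6 and XBP1 to part of their targets. Those of Canx and Dnajc3 are not printed. They are written 5′ to 3′ on the gene's strand with 5 bases on each side, the match in capitals and its coordinates before it (GRCm38.p6).
Hspa5, chr2:34772025-34772043, plus strand gene, match on the gene strand: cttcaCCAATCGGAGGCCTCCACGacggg
Calr, chr8:84847075-84847093, minus strand gene, match on the other strand: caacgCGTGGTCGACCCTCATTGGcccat
Hsp90b1, chr10:86705638-86705656, minus strand gene, match on the gene strand: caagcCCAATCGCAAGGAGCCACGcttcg
Hsp90b1, chr10:86705533-86705551, minus strand gene, match on the other strand: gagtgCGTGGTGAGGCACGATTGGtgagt
Pdia6, chr12:17266491-17266509, plus strand gene, match on the gene strand: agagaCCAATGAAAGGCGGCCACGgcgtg
Creld2, chr15:88819520-88819538, plus strand gene, match on the other strand: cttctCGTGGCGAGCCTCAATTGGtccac
Syvn1, chr19:6046532-6046550, plus strand gene, match on the gene strand: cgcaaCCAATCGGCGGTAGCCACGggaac
Derl3, chr10:75893242-75893260, plus strand gene, match on the other strand: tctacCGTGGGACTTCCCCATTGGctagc
Herpud1, chr8:94386377-94386387, plus strand gene, match on the gene strand: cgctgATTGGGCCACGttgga
Dnajb11, chr16:22857852-22857862, plus strand gene, match on the gene strand: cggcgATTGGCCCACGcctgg

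The letters differ in the spacer between the CCAAT part and the CCACG part, and 4 of the ERSE matches printed lie on the other strand. The promoters of the chaperone gene Hspa5 and of the cofactor gene Dnajb9 are printed over the 250 bases before the RefSeq start because these genes were the most raised in Ctrl 3 (below). Capitals mark the ERSE of Hspa5, which lies 65 to 47 bases before the RefSeq start. The deposited table starts these genes further upstream, by 120 bases for Hspa5 and 258 bases for Dnajb9, so the gene coordinates given below include 120 of the printed bases of Hspa5 and all 250 of Dnajb9. The Dnajb9 window held no match to either motif as written.
Hspa5, chr2:34771840-34772089, plus strand: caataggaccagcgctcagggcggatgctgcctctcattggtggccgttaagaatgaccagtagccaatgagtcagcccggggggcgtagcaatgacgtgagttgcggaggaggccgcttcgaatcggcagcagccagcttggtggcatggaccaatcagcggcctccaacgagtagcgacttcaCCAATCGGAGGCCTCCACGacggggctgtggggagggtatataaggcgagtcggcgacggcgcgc
Dnajb9, chr12:44210069-44210318, minus strand: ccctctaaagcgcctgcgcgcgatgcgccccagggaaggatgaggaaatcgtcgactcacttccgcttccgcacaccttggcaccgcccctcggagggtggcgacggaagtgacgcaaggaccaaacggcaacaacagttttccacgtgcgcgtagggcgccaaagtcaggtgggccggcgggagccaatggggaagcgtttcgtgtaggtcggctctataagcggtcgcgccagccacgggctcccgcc

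Among the sensors and transcription factors, Xbp1 and Ern1 followed the mitochondrial division, and Atf6 did so except for EpPT1 1. No group of the 3 stood apart for any of them. Xbp1, whose spliced message encodes a factor that raises chaperone and ERAD genes, was at 80.4, 193.6 and 202.7 CPM in EpPT2, 108.6, 80.9 and 194.1 CPM in EpPT1, and 76.2, 115.8 and 260.7 CPM in Ctrl. Gene counts cannot separate its spliced form. The lowest libraries of the 3 groups lay within 76.2 to 80.9 CPM, and each group also held a library at 193.6 CPM or more, so the groups overlapped. The sensors themselves spanned less than Xbp1. Atf6, the sensor cut in the Golgi to release a transcription factor, was at 67, 123 and 134.5 CPM in EpPT2, 120.8, 72.1 and 109 CPM in EpPT1, and 84.4, 102.7 and 150.8 CPM in Ctrl. Ern1, which encodes the kinase and RNase IRE1, was at 50.2, 81.4 and 87.6 CPM in EpPT2, 70.7, 61.9 and 88 CPM in EpPT1, and 55.2, 74.1 and 93.6 CPM in Ctrl. For all 3 genes Ctrl 3 was the highest library, by a factor of 1.29 for Xbp1, 1.12 for Atf6 and 1.06 for Ern1 over the next. None of the 3 passed the test (an adjusted p under 0.05 over all tested genes) in any comparison, as 0% of all tested genes did, with log2 fold changes between -0.06 and 0.07 in EpPT2 and between -0.24 and -0.02 in EpPT1, each against Ctrl.

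The major chaperones stood out in Ctrl 3. Hspa5 (GRCm38 chr2:34771970-34777547, plus strand) encodes BiP, the main Hsp70 chaperone of the ER and the inhibitor of the 3 sensors, and carries the ERSE shown above. It was at 643, 1524 and 1523 CPM in EpPT2, 808, 689.8 and 1592 CPM in EpPT1, and 827, 689 and 4223 CPM in Ctrl. The level in Ctrl 3 was 2.65 times that of the next library, EpPT1 3, whereas Ctrl 1 and Ctrl 2 lay among the 5 lowest. The mean was 1229.9 ± 508.2 CPM in EpPT2, 1030.0 ± 490.6 CPM in EpPT1 and 1913.0 ± 2001.6 CPM in Ctrl (SD, n = 3 each). The log2 fold change was -0.64 in EpPT2 (SE 0.66) and -0.89 in EpPT1 (SE 0.66) against Ctrl, with edgeR adjusted p of 0.684 and 0.991. Without Ctrl 3 the direction turned, to 0.70 in EpPT2 and 0.44 in EpPT1. The Hsp90 chaperone gene Hsp90b1 was at 436, 840 and 871 CPM in EpPT2, 691.5, 463 and 826 CPM in EpPT1, and 667, 677 and 1161 CPM in Ctrl, highest in Ctrl 3 by a factor of 1.33. Hyou1, an Hsp70-like exchange factor for BiP, was at 135.8, 155 and 166 CPM in EpPT2, 103.4, 133.9 and 177 CPM in EpPT1, and 112.6, 96.6 and 168.4 CPM in Ctrl, with no excess in Ctrl 3 over the other libraries.

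The lectin chaperones, which bind sugar chains on folding glycoproteins, differed in Ctrl 3. Calr, for the soluble calreticulin, was at 668, 1215 and 1195 CPM in EpPT2, 723, 697 and 1230.1 CPM in EpPT1, and 720.1, 701 and 1928 CPM in Ctrl, so that Ctrl 3 exceeded the next library by a factor of 1.57. Its log2 fold change against Ctrl was -0.12 (SE 0.43) in EpPT2 and -0.34 (SE 0.43) in EpPT1, and without Ctrl 3 it was 0.53 in EpPT2 and 0.31 in EpPT1. Canx, for its membrane-bound relative calnexin, was among the steadiest members, between 555 and 815 CPM over all libraries, and Ctrl 3 was at 0.897 times the highest other library. Both genes had an ERSE in their windows.

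The cofactors of BiP differed widely in how they varied. Dnajb9 (ERdj4, GRCm38 chr12:44205559-44210326, minus strand) is a co-chaperone that helps BiP to hold IRE1 inactive and is a target of XBP1. It was at 25.3, 61.2 and 69.7 CPM in EpPT2, 43.2, 32.7 and 67.5 CPM in EpPT1, and 44.6, 29.9 and 239.4 CPM in Ctrl. Its level in Ctrl 3 was 3.44 times that of the next library, EpPT2 3. On log2(CPM + 1) this gap to the next library was 1.77, the largest of all 14471 tested genes, and the gap of Hspa5 ranked 12. The log2 fold change of Dnajb9 was -1.01 (SE 0.70) in EpPT2 and -1.13 (SE 0.71) in EpPT1 against Ctrl, with edgeR adjusted p of 0.542 and 0.991. Without Ctrl 3 it was 0.48 in EpPT2 and 0.36 in EpPT1.

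Manf, a secreted ER stress-induced factor that binds BiP, was at 95.6, 117 and 116.2 CPM in EpPT2, 96.3, 96.2 and 121.8 CPM in EpPT1, and 96.5, 83.1 and 183.1 CPM in Ctrl. Creld2, an ER-resident protein induced by ER stress, was at 16.2, 20.3 and 19.7 CPM in EpPT2, 14.1, 14.7 and 21.4 CPM in EpPT1, and 13.2, 12.9 and 27.3 CPM in Ctrl. Ctrl 3 exceeded the next library by a factor of 1.5 for Manf and 1.27 for Creld2. Both were thus highest in Ctrl 3, as Hspa5 was, but by a smaller factor. Sdf2l1, a component of an ER chaperone complex, was at 4.2, 4.09 and 3.81 CPM in EpPT2, 2.77, 4.36 and 3.33 CPM in EpPT1, and 2.36, 4.01 and 3.53 CPM in Ctrl, from 38 to 77 counts a library, with Ctrl 3 inside the range of the others. Dnajb11, another co-chaperone of BiP, had the smallest span of the 32 genes, from 63.4 to 84.4 CPM, with 1.33 times as much in its highest library as in its lowest. Dnajc3, which encodes a co-chaperone also known to inhibit PERK, was at 147.9 CPM in Ctrl 3 and at 73 to 115.5 CPM in the other libraries, a factor of 1.28.

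Over the whole set, Ctrl 3 was the highest library for 19 of 32 genes, against 17.4% of all tested genes. It was at least 1.5 times the next library for 4 of them, Dnajb9, Hspa5, Calr and Manf, against 3.18% of all tested genes. The median ratio of Ctrl 3 to the highest other library was 1.09 over the 32 genes and 0.658 over all tested genes. The other 3 libraries with over 5% mitochondrial counts had Hspa5 at 1523 to 1592 CPM and Dnajb9 at 61.2 to 69.7 CPM. Library Ctrl 3 also had the highest mitochondrial share, at 7.48%, and the part of that share in its levels was not tested. The labels give no difference between Ctrl 3 and the other Ctrl libraries.

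**Figure D2:**
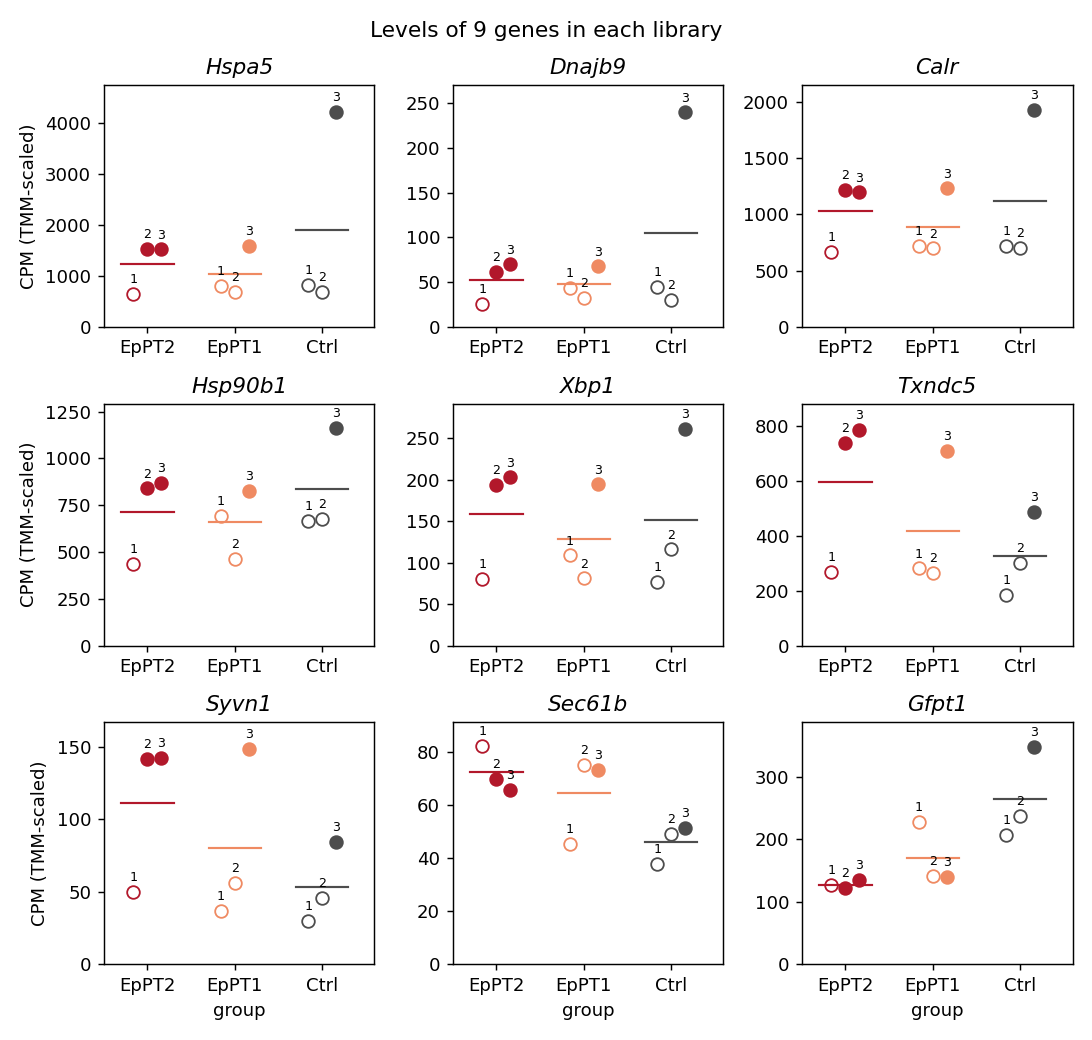
Level in CPM (vertical axes) of 9 genes in each library of EpPT2, EpPT1 and Ctrl, with the replicate number at each point, filled points for libraries with over 5% mitochondrial counts, open points for the others, and a line at the group mean (n = 3). Hspa5 at 4223 CPM and Dnajb9 at 239.4 CPM in Ctrl 3 lie far above the other points, and in the Gfpt1 panel the 3 EpPT2 libraries lie below the 3 Ctrl libraries.

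**Figure D3:**
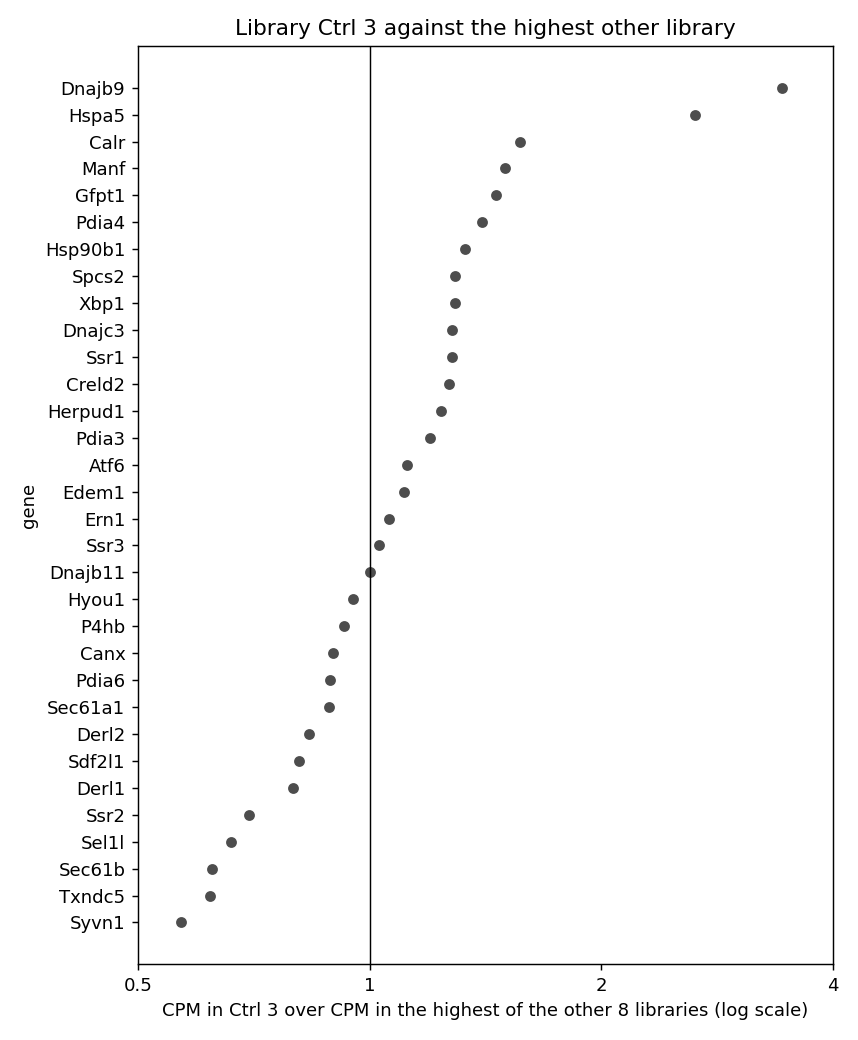
CPM in Ctrl 3 divided by CPM in the highest of the other 8 libraries (horizontal log axis) for each of the 32 tested genes, sorted by that ratio. The 19 genes at or right of the line at 1 were highest in Ctrl 3, led by Dnajb9 at 3.44 and Hspa5 at 2.65, and Syvn1 at 0.568 is lowest.

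The 5 disulfide isomerases, which form and reshuffle disulfide bonds, all followed the mitochondrial division. Per kilobase of gene length, the highest mean levels over the 9 libraries were those of P4hb at 494.8 CPM per kilobase, Calr at 350.2, Hspa5 at 328.9 and Pdia3 at 328.7 CPM per kilobase, and the lowest were those of Sdf2l1 at 3.25 and Derl3 at 0.184 CPM per kilobase. P4hb, which encodes the founding protein disulfide isomerase, was at 807 to 2115 CPM in EpPT2, 767 to 2069 CPM in EpPT1 and 788 to 1958 CPM in Ctrl. Txndc5, a thioredoxin-domain isomerase, was at 267, 738 and 786 CPM in EpPT2, 280.7, 266 and 709 CPM in EpPT1, and 185, 301 and 487 CPM in Ctrl. Its 3 highest libraries were the EpPT2 and EpPT1 libraries with over 5% mitochondrial counts, and Ctrl 3 came next. The log2 fold change was 0.88 (SE 0.52) in EpPT2 and 0.37 (SE 0.52) in EpPT1 against Ctrl, and 0.51 (SE 0.52) in EpPT2 against EpPT1, none past the test, and without EpPT1 3 the value in EpPT1 against Ctrl was -0.25. Pdia6 was at 310.2, 422 and 419 CPM in EpPT2, 176, 320.2 and 440.2 CPM in EpPT1, and 262, 181.5 and 390.3 CPM in Ctrl. The Pdia6 levels of EpPT2 and Ctrl thus overlapped only through Ctrl 3, which lay within the EpPT2 range. Pdia4 was at 359.7 CPM in Ctrl 3 and at 107.2 to 256.4 CPM elsewhere, and Pdia3, which acts with the lectin chaperones, was at 1544.5 CPM in Ctrl 3 and at 668 to 1282.1 CPM elsewhere.

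Among the 6 genes of protein entry, 3 had EpPT2 and Ctrl libraries that did not overlap, and they ran in both directions without passing the test. Ssr2 and Ssr3 encode subunits of TRAP, the complex beside the Sec61 channel, and Sec61b encodes a small subunit of the channel itself. Ssr2 was at 188.4, 233.5 and 237.3 CPM in EpPT2, 134.9, 182.1 and 234.5 CPM in EpPT1, and 123.6, 125.5 and 165.8 CPM in Ctrl. Sec61b was at 82.4, 69.9 and 65.9 CPM in EpPT2, 45.4, 75.3 and 73.3 CPM in EpPT1, and 38, 49.2 and 51.4 CPM in Ctrl. Ssr3 ran the other way, at 424, 449 and 482 CPM in EpPT2, 568, 422 and 448 CPM in EpPT1, and 651, 549.6 and 669 CPM in Ctrl. For these 3 genes every EpPT2 library lay on 1 side of every Ctrl library, as for 23.2% of all tested genes, while EpPT1 1 lay within the Ctrl range for Ssr2, Sec61b and Ssr3. In EpPT2 against Ctrl the log2 fold change was 0.67 (SE 0.25) for Ssr2, 0.65 (SE 0.25) for Sec61b and -0.47 (SE 0.20) for Ssr3, with edgeR adjusted p of 0.376, 0.376 and 0.396. In EpPT1 against Ctrl it was 0.41 (SE 0.25), 0.48 (SE 0.25) and -0.38 (SE 0.20), with an edgeR adjusted p of 0.991 for each. Sec61a1, the pore of the channel, was at 206.9, 346 and 355.9 CPM in EpPT2, 192.9, 218.1 and 331.1 CPM in EpPT1, and 199.7, 191.4 and 315 CPM in Ctrl, along the mitochondrial division. Ssr1, another TRAP subunit, was at 497.7 CPM in Ctrl 3 and at 249.8 to 387.9 CPM elsewhere. Spcs2, a subunit of the signal peptidase that trims entering chains, was at 200.3 CPM in Ctrl 3 and at 121.5 to 155.6 CPM elsewhere.

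Of the 7 ERAD genes, Syvn1, Derl1 and Edem1 followed the mitochondrial division and Sel1l, Derl2 and Herpud1 did not. Syvn1 encodes HRD1, the ubiquitin ligase of ERAD, and was at 50.2, 141.8 and 142.8 CPM in EpPT2, 37, 55.9 and 148.8 CPM in EpPT1, and 29.7, 45.9 and 84.5 CPM in Ctrl. Its log2 fold change was 1.07 in EpPT2 (SE 0.58, 95% interval -0.23 to 2.36) and 0.59 in EpPT1 (SE 0.58) against Ctrl, and neither passed the test. Without EpPT1 3 the value in EpPT1 was -0.20. Derl1, a channel-like protein of the same complex, was at 206.9, 367.6 and 378.7 CPM in EpPT2, 203.1, 213.8 and 367.9 CPM in EpPT1, and 180.5, 209.6 and 300.8 CPM in Ctrl. Herpud1, a stress-induced partner of HRD1 with the ERSE-II shown above, was at 50.1, 52.9 and 60.1 CPM in EpPT2, 50.6, 49.8 and 54.7 CPM in EpPT1, and 50.9, 64.2 and 79.3 CPM in Ctrl. Its log2 fold change was -0.25 (SE 0.21) in EpPT2 and -0.33 (SE 0.21) in EpPT1 against Ctrl. Edem1, which marks misfolded glycoproteins for removal, ran from 73.7 CPM in EpPT2 1 to 147.5 CPM in Ctrl 3. Sel1l, the adaptor of HRD1, was at 115 CPM in Ctrl 1 and at 61.1 to 76.6 CPM in the other 8 libraries, and Derl2, a relative of Derl1, stayed between 48.9 and 68.5 CPM.

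Derl3, a derlin found mainly in secretory tissues, was the 1 member too sparse to be tested. It had 3, 14 and 13 counts in EpPT2, 4, 5 and 9 counts in EpPT1, and 1, 0 and 1 counts in Ctrl. The 3 Ctrl libraries thus had fewer counts than any light-exposed library, with sums of 30 in EpPT2, 18 in EpPT1 and 2 in Ctrl. Of all tested genes, 23.2% had EpPT2 and Ctrl libraries that did not overlap, and 5.26% had EpPT1 and Ctrl libraries that did not. These shares are by CPM over genes that passed the filter on low counts, a set without Derl3. Per total count, the summed counts of Derl3 gave a ratio of 15.4 (exact 95% interval 3.91 to 132.9) for EpPT2 over Ctrl. The ratio was 8.6 (2.06 to 76.5) for EpPT1 over Ctrl, and both intervals cover counting error only. Between EpPT2 and EpPT1 the ratio was 1.79 (0.965 to 3.41). When genes with low counts were kept in, edgeR gave adjusted p of 0.138 in EpPT2 and 0.888 in EpPT1 against Ctrl. Derl3 thus did not pass, while 0.933% and 0.111% of the 28724 genes did in these comparisons. Within the exposed groups, the libraries with 14, 13 and 9 counts were those with over 5% mitochondrial counts, whereas Ctrl 3, also above 5%, had 1 count. Derl3 is also GC-rich, at 57.3%. The part of GC content and of the mitochondrial division in its counts was not tested.

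Gfpt1 (glutamine-fructose-6-phosphate transaminase, GRCm38 chr6:87042846-87092197, plus strand) makes the first committed step of hexosamine synthesis, which supplies the sugars for glycoproteins, and is a known XBP1 target. It had the smallest p of all members in each of the 3 comparisons. It was at 126.7, 121.7 and 134.6 CPM in EpPT2, 228.4, 142.2 and 139.7 CPM in EpPT1, and 207.8, 237.8 and 347.8 CPM in Ctrl. Every EpPT2 library was below every EpPT1 library, a separation in either direction that 2.45% of all tested genes had, and below every Ctrl library, while EpPT1 1 lay within the Ctrl range. The mean was 127.7 ± 6.51 CPM in EpPT2, 170.1 ± 50.5 CPM in EpPT1 and 264.5 ± 73.7 CPM in Ctrl (SD, n = 3 each). Against Ctrl, the log2 fold change was -1.05 in EpPT2 (SE 0.27, 95% interval -1.65 to -0.45), with an unadjusted p of 0.0029 and an adjusted p of 0.376 by edgeR. In EpPT1 it was -0.64 (SE 0.27), with an unadjusted p of 0.038 and an adjusted p of 0.991 by edgeR. Gfpt1 was 1 of the 12 tested genes of the set that did not follow the mitochondrial division.

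Across groups, edgeR called 0 of the 32 tested members in EpPT2 against Ctrl, in EpPT1 against Ctrl and in EpPT2 against EpPT1, as it called 0% of all 14471 tested genes in each. The test for a difference in any group called 0 members as well, with a lowest adjusted p of 0.911 by edgeR and 1 member (Gfpt1) at an unadjusted p under 0.05, against 0% of all genes adjusted and 5.22% unadjusted. DESeq2 called 0 members in each comparison, against 0.476% of all genes in EpPT2 against Ctrl, 0.00693% in EpPT1 against Ctrl and 0% in EpPT2 against EpPT1. At an unadjusted p under 0.05 by edgeR, 4 members passed in EpPT2 against Ctrl (Gfpt1, Ssr2, Sec61b and Ssr3), against 12.2% of all genes. In EpPT1 against Ctrl 1 member passed (Gfpt1), against 3.93% of all genes, and in EpPT2 against EpPT1 0 passed, against 0.214% of all genes. DESeq2 gave 4 members at that threshold in EpPT2 against Ctrl, 1 in EpPT1 against Ctrl and 0 in EpPT2 against EpPT1, against 15%, 5.1% and 0.263% of all genes. The 4 members of EpPT2 against Ctrl were also the only tested members whose groups did not overlap there, against 23.2% of all genes. In EpPT1 against Ctrl 0 of the 32 tested members had groups that did not overlap, against 5.26% of all genes, and in EpPT2 against EpPT1 Gfpt1 did, against 2.45%. These shares are near or below those of all genes.

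Of the 32 members, 15 had positive and 17 negative log2 fold changes in EpPT2 against Ctrl, with a median of -0.02 and a median of -0.03 over all genes. In EpPT1 against Ctrl 12 were positive and 20 negative, with a median of -0.19 and -0.02 over all genes. These comparisons share the Ctrl libraries, Ctrl 3 included, and without Ctrl 3 the medians were 0.35 in EpPT2 and 0.22 in EpPT1. In EpPT2 against EpPT1 27 were positive and 5 negative, with a median of 0.15 and -0.01 over all genes. EpPT2 held 2 of the libraries with over 5% mitochondrial counts and EpPT1 held 1, and the part of this in the last count was not tested.

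**Figure D4:**
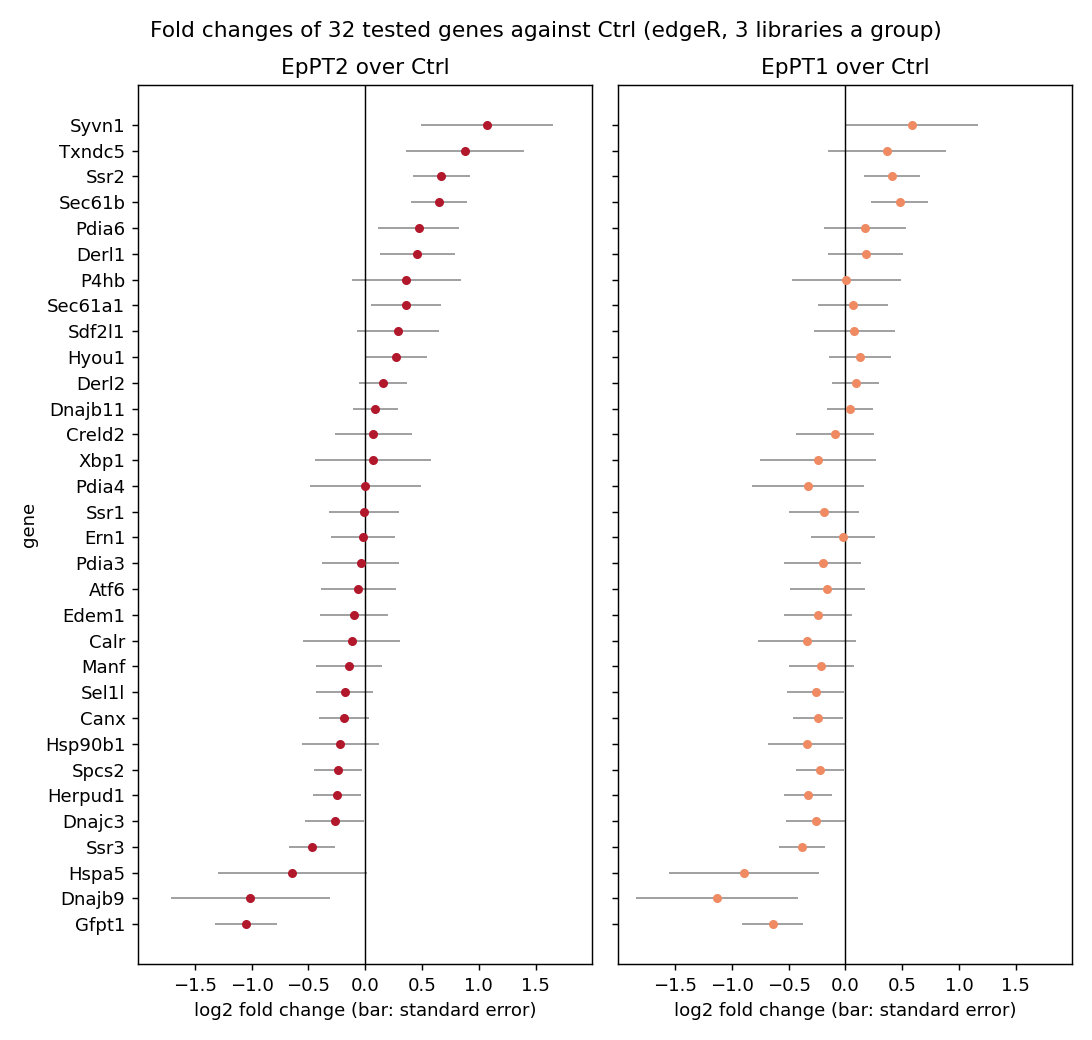
Log2 fold change with its standard error (bars) for the 32 tested genes, EpPT2 over Ctrl in the left panel and EpPT1 over Ctrl in the right panel, sorted by the left panel. Values run from -1.05 for Gfpt1 to 1.07 for Syvn1 in the left panel, and the widest bars belong to Dnajb9 and Hspa5, the genes most raised in Ctrl 3.

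Fold changes of the members followed gene GC content. Across the 32 genes, Spearman's rho of log2 fold change with the GC content of the longest transcript was 0.71 in EpPT2 and 0.66 in EpPT1 against Ctrl, and 0.53 in EpPT2 against EpPT1, as a description over genes that share the libraries. Over all tested genes with a GC value it was 0.62, 0.60 and 0.35. The members with the largest positive values in EpPT2, none past the test, were GC-rich, with 56.6% for Syvn1, 56.3% for Sec61b, 55.7% for Ssr2 and 52.6% for Txndc5, and those with the largest negative values were GC-poor, with 40.6% for Dnajb9, 40.8% for Ssr3, 44.4% for Gfpt1 and 45.6% for Hspa5. When a trend on GC was removed in each library, 1 member (Gfpt1) had an unadjusted edgeR p under 0.05 in EpPT2 against Ctrl, against 6.11% of all genes, and 1 (Herpud1) in EpPT1 against Ctrl, against 2.1% of all genes.

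**Figure D5:**
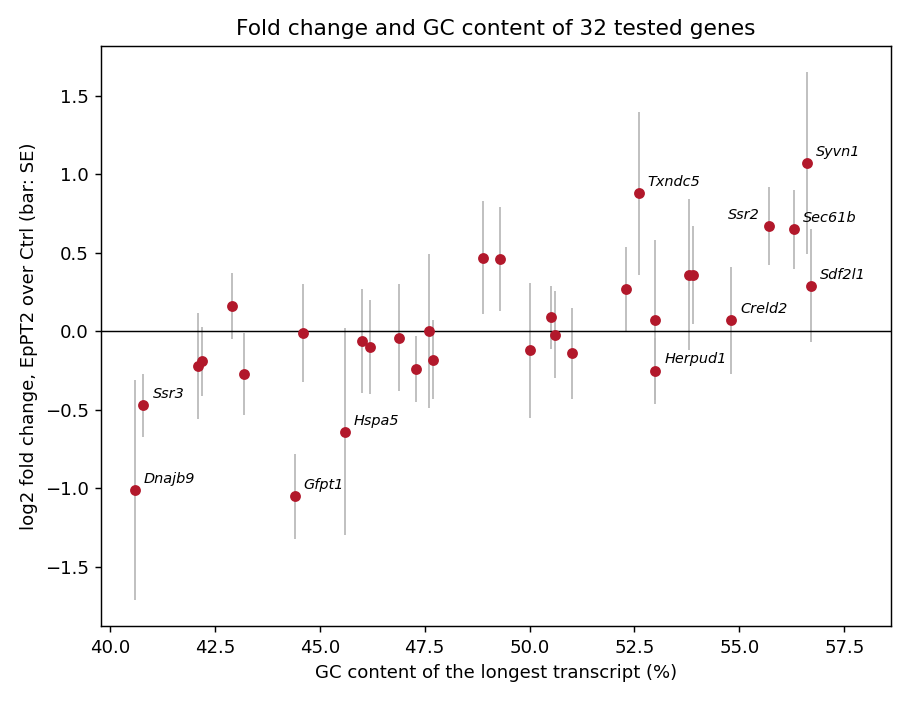
Log2 fold change of EpPT2 over Ctrl with its standard error (vertical axis) against the GC content of the longest transcript in percent (horizontal axis) for the 32 tested genes. Points rise from Dnajb9 at 40.6% GC and -1.01 to Syvn1 at 56.6% GC and 1.07, with Gfpt1 below the others of like GC content.

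The rest of the pathway was read from 9 lists with 148 gene names, of which 139 were in the table and 128 were tested. edgeR called 0 of the 128 in each comparison, as it called 0% of all tested genes. At an unadjusted p under 0.05, 15 were higher and 3 lower in EpPT2 against Ctrl, where 6.88% of all genes were higher and 5.31% lower. In EpPT1 against Ctrl 7 were higher and 2 lower, where 3.01% of all genes were higher and 0.919% lower. In EpPT2 against EpPT1 0 passed, against 0.214% of all genes. The 15 higher in EpPT2 included 4 of 19 other ERAD genes and 3 of 16 genes of N-glycosylation. They also included 2 of 15 genes of the PERK branch and 2 of 16 other chaperones and cofactors. All of the 15 except Sec61g had a GC content above 49.4%, the median of all tested genes with a GC value. The 3 lower genes, Hspa13, Sec11c and Uap1, were below that median. The part of GC content in these numbers of genes was not tested. The median log2 fold change over the 128 genes was 0.07, -0.08 and 0.11 in these comparisons.

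In the PERK branch, Eif2ak3 itself was at 29.9, 65.6 and 67.9 CPM in EpPT2, 41.7, 32.1 and 62 CPM in EpPT1, and 25.6, 37 and 85.3 CPM in Ctrl, along the mitochondrial division. Atf4, the factor translated when PERK is active, was at 287.7, 348.9 and 337.8 CPM in EpPT2, 149.3, 289.1 and 318.8 CPM in EpPT1, and 109.1, 100.1 and 226.7 CPM in Ctrl. Its groups EpPT2 and Ctrl did not overlap, as for 23.2% of all tested genes, and the log2 fold change was 1.16 (SE 0.37, edgeR adjusted p 0.376). Among its targets, Ddit3 and Ppp1r15a overlapped between the groups and Chac1 did not overlap between either exposed group and Ctrl. Chac1, a glutathione-degrading enzyme named here after its values were seen, was at 1.58, 4.75 and 1.84 CPM in EpPT2, 1.21, 2.26 and 3.12 CPM in EpPT1, and 0.558, 0.538 and 1.13 CPM in Ctrl. The log2 fold change of Chac1 against Ctrl was 1.88 (SE 0.61) in EpPT2 and 1.57 (SE 0.61) in EpPT1, with edgeR adjusted p of 0.376 and 0.991. Such a separation held for 23.2% and 5.26% of all tested genes. Over the 15 genes of the PERK list, the median log2 fold change was 0.23 in EpPT2 and 0.06 in EpPT1 against Ctrl. Other genes of that list, also named after their values were seen, differed in direction. In EpPT2 and EpPT1, Asns had -0.34 and -0.22, Atf3 -0.85 and -0.70, Sesn2 0.23 and 0.26, and Nupr1 0.35 and 0.06. Atf4 and Chac1 are GC-rich, at 55.5% and 57.4%. Ddit3 (CHOP), a factor of stress-induced death, was at 32.3, 75.4 and 82.6 CPM in EpPT2, 41.4, 36.3 and 69.6 CPM in EpPT1, and 21.5, 46.6 and 58.1 CPM in Ctrl. Ppp1r15a (GADD34), which reverses the PERK signal, was at 62, 216.7 and 164.8 CPM in EpPT2, 94.3, 78.3 and 208.5 CPM in EpPT1, and 31.8, 102.5 and 215.2 CPM in Ctrl. Trib3, a pseudokinase induced by ATF4, stayed between 5.4 and 12.3 CPM. The oxidase Ero1l, which recharges disulfide isomerases, was at 82.9, 416.4 and 464.4 CPM in EpPT2, 300.3, 81.3 and 400.5 CPM in EpPT1, and 128.3, 310.5 and 533.2 CPM in Ctrl. Creb3l1, a factor related to ATF6, was among the genes too sparse to be tested.

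The list genes with the smallest p were Bbc3 and Atf6b in both comparisons with Ctrl. Bbc3 (PUMA), a trigger of apoptosis, was at 20.5, 19.5 and 20.8 CPM in EpPT2, 5.83, 19 and 22 CPM in EpPT1, and 3.29, 6.7 and 6.98 CPM in Ctrl. Its log2 fold change against Ctrl was 1.84 (SE 0.48) in EpPT2 and 1.47 (SE 0.47) in EpPT1, with edgeR adjusted p of 0.376 and 0.991. Atf6b, the paralogue of ATF6, was at 38.1, 30.8 and 33.4 CPM in EpPT2, 19.3, 45 and 37.6 CPM in EpPT1, and 16.9, 17.6 and 11.1 CPM in Ctrl. Its log2 fold change was 1.16 (SE 0.33) in both comparisons, with the same adjusted p values as Bbc3. Both genes are GC-rich, at 65.2% for Bbc3 and 60.3% for Atf6b. Between EpPT2 and EpPT1 the smallest p belonged to Creb3l4, at 0.416 to 1.32 CPM over these 6 libraries, with 0.99 (SE 0.53), and to the ubiquitin ligase gene Rnf5, at 9.39 to 10.7 CPM in EpPT2 and 6 to 8.49 CPM in EpPT1, with 0.50 (SE 0.28), each with an edgeR adjusted p of 1.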

How the data were processed

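The values were raw counts per gene from 1 table that the authors deposited, with a column for each of the 9 libraries and a column of gene length, which was used for levels per kilobase. The submitters' processing notes name Bowtie 0.12.2 and build mm8. The deposited gene starts and ends match GENCODE mouse release 21 (GRCm38) for 53499 of 54409 gene IDs (98.3%), and GRCm38 is the build printed. How reads were counted, and whether by strand, was not given in the sources used here, so reads of overlapping or antisense genes could not be separated. The pseudogenes Calr-ps and Spcs2-ps had at most 0 and 5 counts in a library. No molecular identifiers are recorded.

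Members and lists were chosen with earlier results of these data known. Genes named with every library's value were the 6 members with the smallest p in each comparison and 14 members chosen by role; of the other lists, Eif2ak3, Atf4, Ddit3, Trib3, Ppp1r15a, Creb3l1, Ero1l and the genes with the 2 smallest p in each comparison.

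In R 4.3.3, edgeR 4.0.16 was run with TMM scaling, filterByExpr, 1 fit over all 9 libraries (6 residual degrees of freedom) and the two-sided quasi-likelihood test, Benjamini-Hochberg adjustment over all 14471 tested genes and a threshold of 0.05. CPM are TMM-scaled. The fits were tested on simulated data. Alternatives were DESeq2 1.42.0 and its size factors, limma-voom (limma 3.58.1), other filters on low counts, the replicate number as a block, the 6 libraries compared, the mitochondrial share as a covariate, a GC correction (a spline with 5 degrees of freedom, removed per library) and leaving out each library. A fit to the 5 libraries with under 5% mitochondrial counts was added after seeing the data. The lowest chi-square per gene between any pair of libraries was 4.74, so none agreed within sampling noise. Of the RefSeq promoter windows of members, the ends of 28 of 30 were found in GENCODE transcripts on the gene's strand and 0 on the other.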

Additional observations from a re-analysis of the deposited data

How the results depend on the processing

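The fit to the 5 libraries held 1 EpPT2 library, so its calls and adjusted p are left out here. Every other alternative called 0 members in each comparison. Without a filter, 0.933% of all genes were called in EpPT2 against Ctrl, 0.111% in EpPT1 against Ctrl and 0.00696% in EpPT2 against EpPT1. DESeq2 called 0.476%, 0.00693% and 0%. Without EpPT1 1, 2 of 14912 genes were called in EpPT2 against Ctrl, and the remaining fits called 0. The lowest adjusted p of a member, by edgeR, DESeq2 or limma-voom, ranged from 0.0567 to 0.814 in EpPT2 against Ctrl. It ranged from 0.185 to 1 in EpPT1 against Ctrl and from 0.696 to 1 in EpPT2 against EpPT1. The median log2 fold change over the members took both signs in each comparison, from -0.18 to 0.35 in EpPT2 against Ctrl, from -0.29 to 0.22 in EpPT1 against Ctrl and from -0.11 to 0.36 in EpPT2 against EpPT1. The highest value against Ctrl was in both cases the one without Ctrl 3. Of 910 log2 fold changes of named members under alternatives, 24 changed sign in other fits and 42 when a library was left out, each in a member that did not pass the test.

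Only named members whose sign turned are listed in this paragraph. The 5 libraries with under 5% mitochondrial counts were EpPT2 1, EpPT1 1, EpPT1 2, Ctrl 1 and Ctrl 2. In them EpPT1 against Ctrl gave 0.05 for Atf6, 0.01 for Calr, 0.15 for Creld2, 0.04 for Dnajb9, 0.05 for Ern1 and 0.11 for Manf. EpPT2 values of this fit rest on 1 library, with 0.11 for Manf and -0.24 for Xbp1 against Ctrl. Against EpPT1 they were -0.01 for Derl1 and -0.03 for Txndc5. With the GC correction, EpPT2 against Ctrl gave 0.19 for Atf6, -0.22 for Creld2, 0.18 for Hsp90b1, -0.15 for Sdf2l1 and -0.08 for Xbp1, and EpPT1 against Ctrl gave -0.20 for Sdf2l1 and -0.11 for Sec61a1. With the mitochondrial share as a covariate, Creld2 was 0.02 and Ern1 0.04 in EpPT1 and Xbp1 -0.12 in EpPT2, against Ctrl. Ern1 was 0.00 with limma-voom in EpPT1 and 0.02 with a filter of 5 CPM in 3 libraries in EpPT2. The cause of each was not tested.

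Leaving out 1 library at a time turned the sign for these members, with the lowest and highest log2 fold change. In EpPT2 against Ctrl these were Atf6 (-0.25 to 0.21), Calr (-0.37 to 0.53), Creld2 (-0.11 to 0.52), Dnajb9 (-1.45 to 0.48), Ern1 (-0.20 to 0.18), Hsp90b1 (-0.39 to 0.09), Hspa5 (-1.04 to 0.70), Manf (-0.35 to 0.29) and Xbp1 (-0.24 to 0.73). In EpPT1 against Ctrl these were Atf6 (-0.33 to 0.10), Calr (-0.65 to 0.31), Creld2 (-0.30 to 0.35), Derl1 (-0.14 to 0.42), Dnajb9 (-1.57 to 0.36), Ern1 (-0.19 to 0.18), Hspa5 (-1.35 to 0.44), Hyou1 (-0.08 to 0.40), Manf (-0.41 to 0.22), Pdia6 (-0.16 to 0.49), Sdf2l1 (-0.12 to 0.25), Sec61a1 (-0.19 to 0.34), Syvn1 (-0.20 to 1.09), Txndc5 (-0.25 to 0.78) and Xbp1 (-0.67 to 0.41).

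At an unadjusted edgeR p under 0.05 the members numbered 4 in EpPT2 and 1 in EpPT1 against Ctrl, against 12.2% and 3.93% of all tested genes. They numbered 7 and 4 with no filter on low counts (9.14% and 4% of all genes). With the filter of 5 CPM they numbered 3 and 1 (14.6% and 4.47%). The mitochondrial share as a covariate gave 8 and 5 (24.4% and 13.6%), and the GC correction 1 and 1 (6.11% and 2.1%). Only the 6 libraries compared gave 4 and 0 (16.7% and 1.94%). Leaving out 1 library gave 2 to 6 and 0 to 5 (5.6% to 16.3% and 1.55% to 13.3%). The 5 libraries gave 0 in EpPT1 against Ctrl (1.23%), and EpPT2 had 1 library there. With the replicate number as a block, 0 members were called, the lowest adjusted p by edgeR was 0.092 in EpPT2 and 0.743 in EpPT1 against Ctrl and 1 in EpPT2 against EpPT1, 6, 1 and 1 members had an unadjusted p under 0.05 (21.1%, 6.54% and 1.2% of all genes), Calr was 0.01 in EpPT2 against Ctrl and Ern1 0.02 in EpPT1 against Ctrl. The numbers were not taken as pairs. Deviations of same-numbered libraries correlated at 0.73, -0.16 and 0.63 between EpPT2 and Ctrl, at 0.15, 0.06 and 0.73 between EpPT1 and Ctrl and at 0.19, -0.64 and 0.64 between EpPT2 and EpPT1, so not every library correlated best with its own number. With 3 libraries a group, the median standard error of a member's log2 fold change was 0.31, which limits what could be called.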

Other observations

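Of the 128 tested genes of the wider ER lists, 2 were at least 1.5 times as high in Ctrl 3 as in the next library, against 3.18% of all tested genes. They are named here after their values were seen. Atf3, a stress-induced transcription factor of the ATF4 branch, was at 945 CPM in Ctrl 3, against 115.1 and 123.5 CPM in the other Ctrl libraries, 143.7 to 270 CPM in EpPT2 and 150.8 to 354.8 CPM in EpPT1. Tram1, a membrane protein beside the Sec61 channel, was at 588.3 CPM in Ctrl 3, against 300.1 and 272.4 CPM in the other Ctrl libraries, 197.3 to 367.6 CPM in EpPT2 and 188.8 to 329.7 CPM in EpPT1. The log2 fold change of Atf3 against Ctrl was -0.85 (SE 0.73) in EpPT2 and -0.70 (SE 0.73) in EpPT1, and that of Tram1 was -0.38 (SE 0.36) in EpPT2 and -0.48 (SE 0.36) in EpPT1. None of these passed the test.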
